A study of Mus musculus with 24 samples.

Results

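The nuclear-encoded subunits of the mitochondrial respiratory chain and ATP synthase were examined in sorted mouse bone marrow stem and progenitor cells. Genes were taken by symbol: Nduf genes with a following a, b, c, s or v, Sdha to Sdhd, all Uqcr genes, Cox4 to Cox8 genes and all Atp5 genes. The rule found 92 of the 24454 genes in the count table. They comprise 36 subunits of complex I, 8 complex I assembly factors (the Ndufaf genes), 4 subunits of complex II, 8 of complex III, 20 of complex IV and 16 of complex V. Ndufa4 and its paralogue Ndufa4l2 were placed with complex IV, where the Ndufa4 protein is found.

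The respiratory chain sits in the inner mitochondrial membrane. Complexes I (NADH dehydrogenase) and II (succinate dehydrogenase) pass electrons to ubiquinone, complex III (cytochrome bc1) passes them to cytochrome c, and complex IV (cytochrome c oxidase) passes them to oxygen. Complex V (ATP synthase) uses the resulting proton gradient to make ATP. Complexes I, II and III carry iron-sulfur clusters, and most subunits are nuclear genes that must be matched to a few made from mitochondrial DNA, which were not analysed here. Long-term haematopoietic stem cells are known for relying little on respiration when quiescent.

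The study sorted LTHSC (long-term haematopoietic stem cells), preMegE (progenitors of megakaryocytes and erythroid cells) and MkP (megakaryocyte progenitors) from the bone marrow of C57BL/6N mice, 12 weeks after 5 days of tamoxifen. The genotype called KI carries a knock-in of mouse Jak2 under Scl-Cre, E12 is labelled for Jak2 exon 12 and also has Scl-Cre, and VF is labelled for the valine-to-phenylalanine form of Jak2 and has Vav1-Cre, which is active across blood cells. The driver and the VF allele therefore cannot be told apart. No label names an unmutated group, and KI served as the reference without being taken as wild type. There were 24 libraries in 8 groups of 3 (LTHSC and MkP of KI, E12 and VF, and preMegE of KI and VF), made by Smart-seq2 with 10357877 to 29691635 counts per library. Separate animals are not stated for the replicates, and p-values measure the spread between these libraries, which may be technical.

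Marker genes followed the labelled populations. The summed level of 6 stem cell markers had a median of 1359 CPM (counts scaled to a common library total) in LTHSC, 229 in preMegE and 775 in MkP, with Procr at 33.1 to 76.3 CPM in LTHSC and 1.09 to 1.66 in preMegE. Summed erythroid markers had medians of 1906, 7102 and 1327 CPM, and summed megakaryocyte markers 404, 912 and 4542 CPM, in the same order. Other lineages were also present: 6 neutrophil and monocyte markers summed to 261 to 25907 CPM in LTHSC (median 549), 2136 to 18119 in preMegE (median 6000) and 1049 to 8056 in MkP (median 3583). The highest LTHSC value belonged to library E12 4, whose stem cell markers summed to 306 CPM, the lowest of its population. Of 6 lymphoid markers 5 were in the table, and they summed to 0 to 12.3 CPM in LTHSC, 27.8 to 182 in preMegE and 0.335 to 2.90 in MkP, with Cd8a at 0 in every LTHSC and preMegE library. Mast cell, basophil and eosinophil markers summed to medians of 295, 361 and 570 CPM in LTHSC, preMegE and MkP. Most of these sums was Gata2, with medians of 262, 212 and 447 CPM. Of the other markers on that list, Cpa3 (4.7, 121 and 51.0 CPM), Mcpt8 and Ms4a2 had their highest median in preMegE, and Prg2 and Epx in MkP. Stroma and endothelium markers summed to medians of 72.3, 67.0 and 81.0 CPM in the same order, most of it Pecam1.

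The promoters of 4 members are shown because these genes cover the range of what follows: Uqcr11 and Cox6a1 differed strongly between populations, Sdhb moderately, and Cox7a2l passed none of the 3 population tests with all libraries. Each sequence is the 250 bases before the gene start in the direction of transcription (RefSeq, GRCm38.p6), and capitals mark matches on either strand to the NRF1 core (GCATGCGC), the ETS motif (CCGGAAG) and the YY1 motif (AAGATGGCG) described after them. Uqcr11, at chr10:80406822-80407071 on the minus strand, has an ETS match. Cox6a1, at chr5:115348959-115349208 on the minus strand, has the NRF1 core on both strands, overlapping in the longer palindromic site, and an ETS match read on the other strand. Sdhb, at chr4:140961021-140961270 on the plus strand, has the NRF1 core, and Cox7a2l, at chr17:83514334-83514583 on the minus strand, has no match to these 3.
Uqcr11: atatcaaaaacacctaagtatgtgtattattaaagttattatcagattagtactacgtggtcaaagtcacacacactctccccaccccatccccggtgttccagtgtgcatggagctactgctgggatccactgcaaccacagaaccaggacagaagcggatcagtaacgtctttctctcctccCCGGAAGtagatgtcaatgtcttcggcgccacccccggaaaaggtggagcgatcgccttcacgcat
Cox6a1: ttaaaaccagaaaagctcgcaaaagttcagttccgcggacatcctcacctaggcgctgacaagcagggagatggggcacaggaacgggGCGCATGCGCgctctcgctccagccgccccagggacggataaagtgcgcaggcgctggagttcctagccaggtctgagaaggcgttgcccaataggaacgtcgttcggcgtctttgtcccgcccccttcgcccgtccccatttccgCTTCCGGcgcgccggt
Sdhb: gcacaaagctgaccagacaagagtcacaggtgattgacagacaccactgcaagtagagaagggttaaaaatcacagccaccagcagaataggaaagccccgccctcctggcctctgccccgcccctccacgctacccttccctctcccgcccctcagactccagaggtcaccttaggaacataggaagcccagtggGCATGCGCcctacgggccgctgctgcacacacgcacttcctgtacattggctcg
Cox7a2l: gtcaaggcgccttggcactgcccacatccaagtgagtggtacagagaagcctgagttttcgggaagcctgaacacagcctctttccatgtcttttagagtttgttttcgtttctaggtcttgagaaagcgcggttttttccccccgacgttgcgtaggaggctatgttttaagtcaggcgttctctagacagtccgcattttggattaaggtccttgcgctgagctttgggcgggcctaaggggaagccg

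NRF1 and the ETS factor GABPA are known activators of respiratory chain genes. Of 6 motifs searched on both strands of 81 promoter windows of 76 member genes, the NRF1 core GCATGCGC was in 14.8% of member windows and 4.72% of the 14756 windows of genes tested (2.71% of all 32851 windows). The longer palindromic NRF1 site, which has GC before this core, was in 8.64% of member windows, against 1.83% and 0.971%. The ETS motif CCGGAAG was in 22.2% of member windows against 16% and 8.86%, and the YY1 motif AAGATGGCG in 9.88% against 2.65% and 1.4%. The motif of GATA factors, AGATAA, was in 7.41% of member windows against 7.12% and 11.2%, and the core of the promoter box bound by TBP, TATAAA, in 9.88% against 7.68% and 13.6%. These shares describe letters in the windows and not binding.

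The members are short genes, and 4 libraries were set apart, 3 of them clearly in a way that followed gene length. The median length of the members was 733 bases (292 to 3632) against 2207 bases over all genes, and 65.2% of the members but 9.61% of the genes tested had at most 1000 bases. In preMegE KI 1, MkP KI 5 and MkP KI 6 the members took 9.23%, 8.40% and 7.79% of all counts, and other genes of up to 1000 bases took 30.4%, 31.1% and 31.3%. In LTHSC E12 4 these shares were 2.71% and 11.6%, above every other LTHSC library. In the remaining 20 libraries the members took 1.22% to 3.53% and the other short genes 5.28% to 14.3%. The highest of both belonged to preMegE VF 1. No cutoff on these shares therefore sets LTHSC E12 4 apart and keeps preMegE VF 1. The scaling factors of the 3 KI libraries, 0.524 to 0.576, were also apart from the 0.922 to 1.23 of all other libraries. Dividing by such low factors raises the CPM of these 3 libraries further. In preMegE KI 1 the members summed to 170475 CPM with the factor and 92299 without it.

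Within the members, the excess of these libraries grew as genes became shorter. The log2 deviation of a library was taken from the median of its population's libraries outside the 4. Across the 87 members tested, which share each library, it correlated with log10 length at r = -0.80 in MkP KI 5, MkP KI 6 and preMegE KI 1 alike. With the length of the principal GENCODE transcript r was -0.72 to -0.70. In preMegE KI 1 the 15 members of up to 500 bases lay 3.95 log2 units above the other libraries at the median, and all 385 tested genes of that length 1.73. The 7 members of over 2000 to 4000 bases had a median of -0.46, and all 5846 genes of that length -0.56. Atp5k (292 bases), a small membrane subunit of ATP synthase, was 4.49 to 5.87 above in the 3 KI libraries, while Ndufs1 (2927 bases), the largest core subunit of complex I, was at -2.27 to -1.41 and Sdha (2859 bases), the flavoprotein of complex II, at -1.70 to -1.57. Ndufa11 went against its deposited length of 2661 bases, at 3.98 to 4.56 above, and its principal transcript has 545 bases. The order by length was steep in these 3 libraries and shallower in LTHSC E12 4 (r = -0.32), where the members of over 2000 to 4000 bases had a median of 0.81 and all genes of that length -0.29. PreMegE VF 1, which is counted among the remaining 20 libraries, had r = -0.77 with a smaller spread, from -0.93 for Uqcrc1 to 2.56 for Atp5k. Its reference median included the library itself. The main results are therefore given with all libraries and without the 4 that stand apart.

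**Figure D1:**
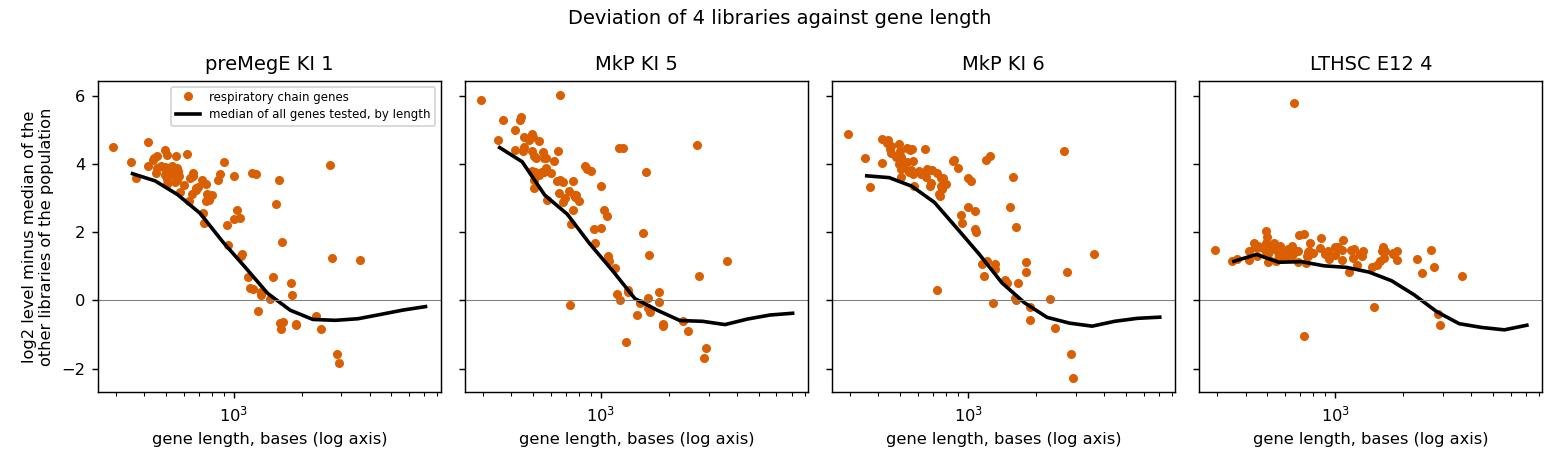
Log2 deviation of each of the 87 tested members (vertical axis) against gene length in bases on a log axis, in the 4 libraries that stand apart. The deviation is from the median of the population's libraries outside these 4. The black line is the median of all tested genes by length. In MkP KI 5, MkP KI 6 and preMegE KI 1 the members descend with length (r = -0.80 in each), from 4.49 to 5.87 for Atp5k to -2.27 to -1.41 for Ndufs1, and in LTHSC E12 4 they descend less (r = -0.32).

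The summed level of the members was lowest in LTHSC, highest in preMegE and between them in MkP. Over all libraries the sum was 9914 to 29410 CPM in LTHSC (median 12133), 21049 to 170475 in preMegE (median 27173) and 14895 to 148501 in MkP (median 18363). In the 20 libraries left without the 4 it was 9914 to 12376 CPM in LTHSC (median 11997), 14895 to 19910 in MkP (median 17925) and 21049 to 35808 in preMegE (median 27000). There the ranges of the 3 populations did not overlap, while with all libraries they did. The 4 libraries were set apart partly by their high member levels, so part of this separation follows from leaving them out. In bulk RNA, fewer cells of a type and less RNA per cell cannot be told apart.

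All 5 complexes and the assembly factors had this order of medians. The ratio of the preMegE median to the LTHSC median over all libraries was 2.33 for complex I, 1.92 for complex II, 2.88 for complex III, 2.21 for complex IV, 2.14 for complex V and 1.91 for the assembly factors. The ratio of MkP to LTHSC was 1.496, 1.36, 1.42, 1.65, 1.74 and 1.27 in the same order. The assembly factor ratio of preMegE to LTHSC was 1.63 without the 4 libraries, and that of complex III was 2.91. Complex III thus had the highest ratio in preMegE and complex V the highest in MkP, with no test of the difference between complexes.

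**Figure D2:**
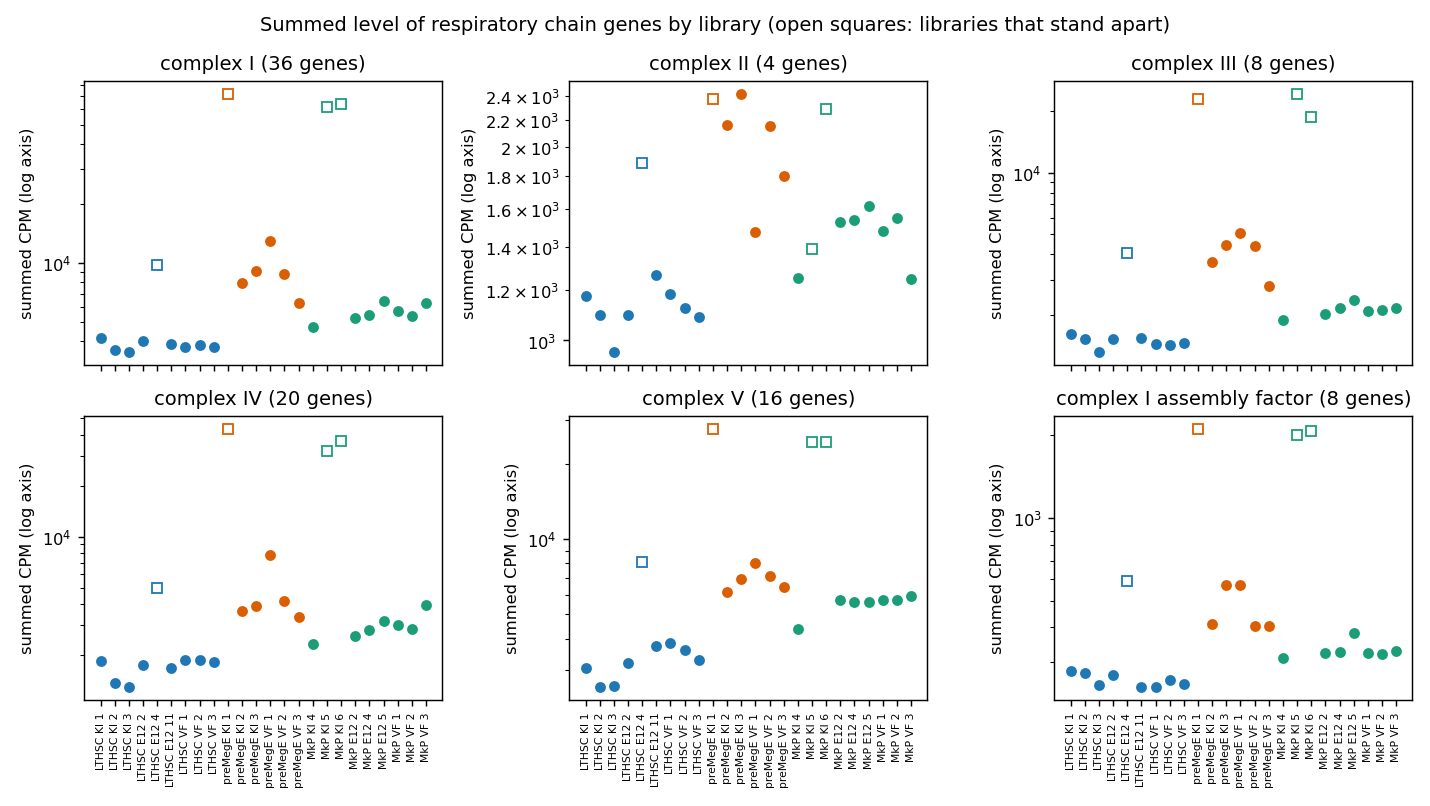
Summed CPM of the members of each complex in every library on a log axis, by population and genotype. MkP KI 5, MkP KI 6 and preMegE KI 1 lie far above their populations for complexes I, III, IV and V. For complex II, preMegE KI 1 (2372 CPM) and MkP KI 5 (1387 CPM) lie within the other libraries of their populations (1475 to 2418 and 1245 to 1618 CPM), and MkP KI 6 (2295 CPM) lies above them.

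Per kilobase of gene, the most abundant members were similar in the populations. Median CPM per kilobase without the 4 libraries in LTHSC was highest for Cox4i1 (547), a regulatory subunit of complex IV, followed by Atp5b (511), the catalytic subunit of ATP synthase, and Uqcrc1 (421), a core subunit of complex III. In preMegE the first 3 were Cox4i1 (1122), Atp5b (1114) and Uqcrc1 (1113), followed by Uqcr11 (1081), a small subunit of complex III. In MkP they were Atp5b (993), Cox4i1 (808) and Cox6b1 (674), a subunit of complex IV on the intermembrane side. At the other end, 5 members were too low to test over 24 libraries: Cox7b2 (highest count in a library 11), Cox8b (4), Cox8c (1), Ndufa4l2 (17) and Atp5g2 (18).

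In preMegE against LTHSC, compared over the KI and VF libraries of both, members of every complex were higher in preMegE. By edgeR's quasi-likelihood test 79 of 87 members tested were higher and 1 was lower at an adjusted p under 0.05, where 21.2% of all 14975 genes tested were higher and 19.4% lower. The median log2 fold change of the members was 2.25 over all libraries (all genes -0.02). Without the 4 libraries 81 of 89 were higher and 1 lower (23.5% and 26.3% of all genes), 80 of them called in both, and the median was 1.22. In the VF line alone 74 were higher (19.0% of all genes) with a median of 1.28, and with a per-library correction for gene length 81 were higher (27.6%) with a median of 1.17. So the count of members moved little and the size of the difference moved by more than 1.5 times on a linear scale. For 69 members every preMegE library lay above every LTHSC library, as it did for 12.7% of genes tested.

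Complex I had 35 of 36 subunits higher in preMegE, with a median log2 fold change of 2.26 (36 of 36 and 1.23 without the 4 libraries). Ndufv1, which binds NADH, was 153 to 182 CPM in the 6 LTHSC libraries of KI and VF and 235 to 547 in the 6 preMegE libraries, with no overlap (log2 fold change 1.20, SE 0.25, adjusted p 0.000800). The 29 supernumerary subunits, small proteins around the core, were all higher, with Ndufa1 at 3.27 (SE 0.71, adjusted p 0.00114) and Ndufb7 at 3.02 (SE 0.67, adjusted p 0.00136; 1.77 without the 4). Ndufa1 shows how the size rests on one library: it was 49.0 to 71.7 CPM in LTHSC, 3841 in preMegE KI 1 and 132 to 415 in the other preMegE libraries, and its log2 fold change without the 4 libraries was 1.81.

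Ndufs1, the largest iron-sulfur subunit of complex I, did not pass the test with all libraries. It was 99.3 to 129 CPM in the LTHSC libraries compared, 59.6 in preMegE KI 1 and 133 to 250 in the other 5 preMegE libraries. Its log2 fold change was 0.61 (SE 0.31, adjusted p 0.123), and 0.75 without the 4 libraries (SE 0.14, adjusted p 0.000200). Of the 7 iron-sulfur subunits of complexes I, II and III, 6 were called higher with all libraries (median 1.20) and 7 without the 4 (median 1.10). The 8 assembly factors, which build complex I and do not stay in it, had 6 called higher in both, with medians of 1.29 and 0.74.

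Complex II, the smallest complex, had the lowest median of the 5 complexes. Sdhb, its iron-sulfur subunit, was 226 to 283 CPM in the LTHSC libraries compared and 431 to 1538 in preMegE, and rose by 1.49 on the log2 scale (SE 0.32, adjusted p 0.00120; 1.18 without the 4 libraries). Sdhc and Sdhd, the membrane anchors, rose by 0.96 (SE 0.23, adjusted p 0.00236; 0.84 without the 4) and 1.21 (SE 0.26, adjusted p 0.00104; 1.22 without the 4). Sdha, the flavoprotein, was 561 to 638 CPM in LTHSC, 292 in preMegE KI 1 and 576 to 993 in the other preMegE libraries. Its log2 fold change was 0.36 (SE 0.28, adjusted p 0.330), and 0.49 without the 4 libraries (SE 0.12, adjusted p 0.00237). Complex II thus had 3 of 4 subunits called higher with all libraries (median 1.08) and 4 of 4 without the 4 (median 1.01).

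All 8 subunits of complex III were higher in preMegE, in both settings, with medians of 2.05 and 1.18. Uqcr11 (chr10:80402997-80406821, minus strand) was 154, 128 and 105 CPM in LTHSC KI and 125, 143 and 133 in LTHSC VF, against 8177, 420 and 471 in preMegE KI and 1244, 519 and 300 in preMegE VF. Each preMegE value was above each LTHSC value. The log2 fold change was 3.46 (SE 0.72, adjusted p 0.000884), 2.03 without the 4 libraries (SE 0.25) and 2.35 in the VF line alone (SE 0.41). Uqcr10 and Uqcrq, small subunits of the same complex, rose by 3.41 (SE 0.74, adjusted p 0.00116; 1.99 without the 4) and 3.29 (SE 0.68, adjusted p 0.000805; 1.998 without the 4). The longer core subunit Uqcrc1, 601 to 833 CPM in the LTHSC libraries and 965 to 2290 in preMegE, rose by 1.23 (SE 0.28, adjusted p 0.00153), and Uqcrfs1, the Rieske iron-sulfur protein, by 1.14 (SE 0.22, adjusted p 0.000462). Their values without the 4 libraries, 1.28 and 1.07, were close to those with all of them.

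Complex IV had 13 of 16 tested subunits higher and 1 lower (median 2.64), and 13 of 17 higher and 1 lower without the 4 libraries (median 1.45). Cox6a1 was 111 to 167 CPM in the LTHSC libraries compared, 6743 in preMegE KI 1 and 388 to 979 in the other preMegE libraries (log2 fold change 3.19, SE 0.64, adjusted p 0.000676; 1.86 without the 4). Cox5a, which binds next to Cox4, rose by 2.77 (SE 0.60, adjusted p 0.00117; 1.69 without the 4). Cox7a2l, a factor that joins complexes III and IV into supercomplexes, was 170 to 223 CPM in these LTHSC libraries and 162 to 280 in preMegE. The 2 ranges overlapped, and its log2 fold change was 0.04 (SE 0.20, adjusted p 0.892) and -0.11 without the 4 libraries (SE 0.11, adjusted p 0.447).

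Complex V had 14 of 15 subunits higher (median 2.47), and 14 of 16 without the 4 libraries (median 1.17). Atp5b was 659 to 1316 CPM in the LTHSC libraries compared and 1310 to 2478 in preMegE, which overlap slightly, and rose by 1.13 (SE 0.25, adjusted p 0.00133). Atp5a1, the partner of Atp5b in the catalytic head, rose by 0.71 (SE 0.22, adjusted p 0.0124; 0.77 without the 4), and Atp5k by 3.58 (SE 0.80, adjusted p 0.00151; 2.00 without the 4). The exception was Atp5s, a coupling factor now named Dmac2l, at 32.5 to 41.3 CPM in the LTHSC libraries and 20.8 to 56.8 in preMegE (-0.06, SE 0.19, adjusted p 0.827). The neutrophil, monocyte and lymphoid markers that were higher in preMegE than in most LTHSC libraries move with this comparison, and their part in it was not tested.

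**Figure D3:**
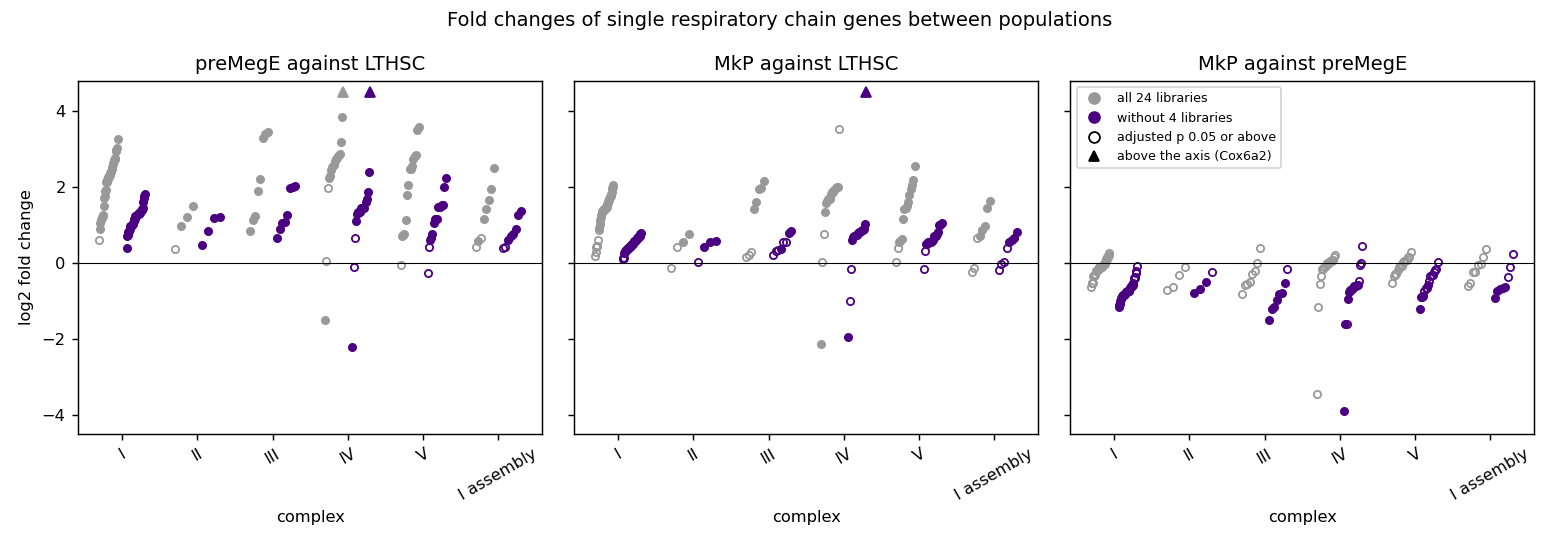
Log2 fold change of each tested member by complex for the 3 population comparisons, with all libraries and without the 4 that stand apart. Grey points are all libraries and purple points the fit without the 4, filled where the adjusted p is under 0.05, with Cox6a2 as a triangle where it lies above the axis. The values of preMegE against LTHSC are smaller without the 4 libraries (median 1.22 against 2.25), and 81 of 89 members are still called higher.

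In MkP against LTHSC, over KI, E12 and VF, most members were higher in MkP, with a smaller median fold change than in preMegE. By edgeR's test 66 of 87 were higher and 1 lower, where 17.0% of all genes were higher and 17.7% lower, with a median log2 fold change of 1.43. Without the 4 libraries 63 of 89 were higher and 1 lower (18.6% and 20.6% of genes) with a median of 0.56, and 55 members were called in both settings. MkP KI was KI 4 alone in the fit without the 4. In the VF line alone 12 of 87 members were higher, where 9.25% of genes were, with a median of 0.63. The count there was thus little above the background. With all libraries no member had all MkP libraries above all LTHSC libraries (1.40% of genes), and without the 4 libraries 56 did (11.5%). The second count depends on the choice of the 4, which were set apart partly by member levels.

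By complex, 29 of 36 subunits of complex I, 5 of 8 assembly factors, 2 of 4 of complex II, 5 of 8 of complex III, 12 of 16 of complex IV and 13 of 15 of complex V were higher in MkP. The counts without the 4 libraries were 26 of 36, 4 of 8, 3 of 4, 3 of 8, 13 of 17 and 14 of 16. Over all libraries Atp5b was 1159 to 1994 CPM in MkP and 659 to 2635 in LTHSC, which overlap. In the 7 remaining MkP libraries it was 1381 to 1994, and in the 8 remaining LTHSC libraries 659 to 1316, with no overlap. It rose by 0.59 with all libraries (SE 0.20, adjusted p 0.0264) and by 0.78 without the 4 (SE 0.11, adjusted p 1.96e-05). Cox8a, a small subunit of complex IV, rose by 2.01 (SE 0.49, adjusted p 0.00360; 0.87 without the 4), and Atp5e, the smallest subunit of the ATP synthase head, by 2.19 (SE 0.53, adjusted p 0.00318; 1.01 without the 4). Atp5g1 rose by 2.05 (SE 0.49, adjusted p 0.00289; 1.00 without the 4).

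Several long core subunits did not pass in this comparison with all libraries. Their log2 fold changes were 0.28 for Ndufs1 (adjusted p 0.429), 0.45 for Ndufv1 (0.0845), -0.12 for Sdha (0.726) and 0.21 for Uqcrc1 (0.494). Once the 4 libraries were left out, Ndufs1 (0.42, adjusted p 0.0131) and Ndufv1 (0.58, adjusted p 0.00244) were called higher, and Sdha (0.03, adjusted p 0.882) and Uqcrc1 (0.32, adjusted p 0.0912) were not. Sdha was 552 to 691 CPM in the 8 remaining LTHSC libraries and 492 to 745 in the 7 MkP libraries, the MkP range covering that of LTHSC.

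In MkP against preMegE, over KI and VF, the answer depended on the libraries that stand apart. With all libraries edgeR called 0 of 87 members (4.26% of genes lower, 3.27% higher), and DESeq2 called 2 lower (5.00%), Sdha and Uqcrc1. The median log2 fold change was -0.11. Without the 4 libraries 46 of 89 members were lower in MkP (8.61% of genes lower) and 0 higher (8.36%), with a median of -0.69, and 45 of the 46 were among those called higher in preMegE than in LTHSC. In that fit MkP KI was KI 4 alone, with the same weight as the 3 MkP VF libraries together. KI 4 had the lowest member sum of the MkP libraries, 14895 CPM. In the VF line alone, which holds none of the 4 libraries, 12 members were lower (5.52% of genes lower), with a median of -0.66. That line does include preMegE VF 1, whose member deviations also followed gene length (r = -0.77). Leaving out preMegE KI 1 alone gave 1 higher and 5 lower (5.67% and 6.33% of genes) and turned the median to 0.90. Leaving out MkP KI 4 gave 2 lower (8.26%) with a median of 0.14, and leaving out MkP KI 6 gave 3 lower (3.43%).

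The members lower in MkP without the 4 libraries were 23 of 36 in complex I, 4 of 8 assembly factors, 3 of 4 in complex II, 7 of 8 in complex III, 6 of 17 in complex IV and 3 of 16 in complex V. Uqcr11 fell by 1.499 on the log2 scale (SE 0.32, adjusted p 0.00402), Uqcrq by 1.22 (SE 0.27, adjusted p 0.00460) and Uqcr10 by 1.17 (SE 0.37, adjusted p 0.0393). Uqcrc1 was 965 to 2290 CPM in the 5 remaining preMegE libraries and 743 to 1016 in the 7 MkP libraries, E12 included, which overlap only at preMegE VF 1, and fell by 0.97 (SE 0.20, adjusted p 0.00262). In complex I, Ndufa1 fell by 1.16 (SE 0.29, adjusted p 0.00895), Ndufb8 by 1.12 (SE 0.25, adjusted p 0.00523), Ndufb2 by 1.07 (SE 0.29, adjusted p 0.0162) and Ndufs6 by 0.99 (SE 0.22, adjusted p 0.00381). The catalytic subunit of ATP synthase, Atp5b (-0.36, SE 0.15), and its partner Atp5a1 (-0.23, SE 0.13) did not pass. The share of subunits called lower was thus highest in complex III and lowest in complex V, with no test of that difference.

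Isoform genes replace a general subunit in particular tissues. Cox4i2 (chr2:152753916-152765039, plus strand), the isoform of Cox4 known for induction by low oxygen, was the 1 member lower in both progenitors. It was 9.47, 6.10 and 4.83 CPM in LTHSC KI, 3.05, 3.65 and 3.95 in E12 and 13.3, 10.2 and 14.8 in VF, against 9.97, 2.67 and 0.863 in preMegE KI and 4.24, 1.44 and 1.63 in preMegE VF. In MkP it was 3.78, 1.34 and 1.86 in KI, 0.672, 0.364 and 1.11 in E12 and 1.69, 1.48 and 3.16 in VF. It fell by 1.51 in preMegE (SE 0.49, adjusted p 0.0174; -2.21 without the 4 libraries) and by 2.13 in MkP (SE 0.41, adjusted p 0.000423; -1.95 without the 4). Its share of the Cox4 pair had a median of 2.07% in LTHSC, 0.188% in preMegE and 0.181% in MkP.

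Cox6b2 (chr7:4751792-4753094, minus strand), an isoform best known from testis, was highest in preMegE. It was 6.55 to 16.2 CPM in the LTHSC libraries of KI and VF, 1176, 66.5 and 59.9 in preMegE KI and 82.8, 58.6 and 49.5 in preMegE VF. All preMegE libraries lay above all LTHSC libraries, and it rose by 3.85 (SE 0.68, adjusted p 0.000216; 2.41 without the 4). Its share of the Cox6b pair had a median of 4.77% in LTHSC, 9.63% in preMegE and 4.70% in MkP, and without the 4 libraries preMegE (7.56% to 10.5%) lay above LTHSC (3.27% to 5.96%) and MkP (3.86% to 7.02%). In MkP without the 4 libraries it fell by 1.61 against preMegE (SE 0.28, adjusted p 0.000656) and was higher than in LTHSC by 0.86 (SE 0.20, adjusted p 0.00165).

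Cox6a2 (chr7:128205435-128206366, minus strand), the heart and skeletal muscle isoform of Cox6a, had 0 counts in all 6 LTHSC libraries of KI and VF and was found in all 6 preMegE libraries. It was 28.4, 1.95 and 3.41 CPM in preMegE KI and 7.60, 1.74 and 2.19 in preMegE VF. In the 9 MkP libraries it was 0 to 11.1 CPM (median 0.139), with 0 counts in 1 library and the highest value in MkP KI 5. Against a floor of 3 counts, at most 0.199 CPM in an LTHSC library, the lowest preMegE value was at least 8.77-fold higher; this covers counting error only. LTHSC E12 4 had 106 counts (4.78 CPM), unlike the other LTHSC libraries, and its share of the Cox6a pair was at most 0.853% in any library. Its exons overlap Itgad on the other strand, and the strand setting of the counting is not given in the sources used here.

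The 3 Atp5g genes encode the same mature ring subunit of ATP synthase behind different import sequences. Over all libraries Atp5g1 was 36.8 to 186 CPM in LTHSC, 166 to 2840 in preMegE and 84.8 to 1899 in MkP, which overlap. Without the 4 it was 36.8 to 60.0 CPM in 8 LTHSC and 166 to 342 in 5 preMegE libraries. In the 7 remaining MkP libraries it was 84.8 to 128, with no overlap between populations. It rose by 3.50 from LTHSC to preMegE (SE 0.64, adjusted p 0.000277; 2.24 without the 4) and, without the 4 libraries, fell by 1.22 from preMegE to MkP (SE 0.20, adjusted p 0.000381). Atp5g3 rose by 2.57 in preMegE (SE 0.58, adjusted p 0.00154; 1.48 without the 4). The share of Atp5g1 among the 3 genes had a median of 36.0% in LTHSC, 45.9% in preMegE and 41.9% in MkP without the 4 libraries, and that of Atp5g2 was at most 0.528%. Cox7a1, the muscle isoform of Cox7a, was at 0.215 to 1.17 CPM in LTHSC and did not pass in preMegE (1.99, SE 0.90, adjusted p 0.0815) or in MkP (0.76, SE 0.73, adjusted p 0.452; -1.003 without the 4).

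**Figure D4:**
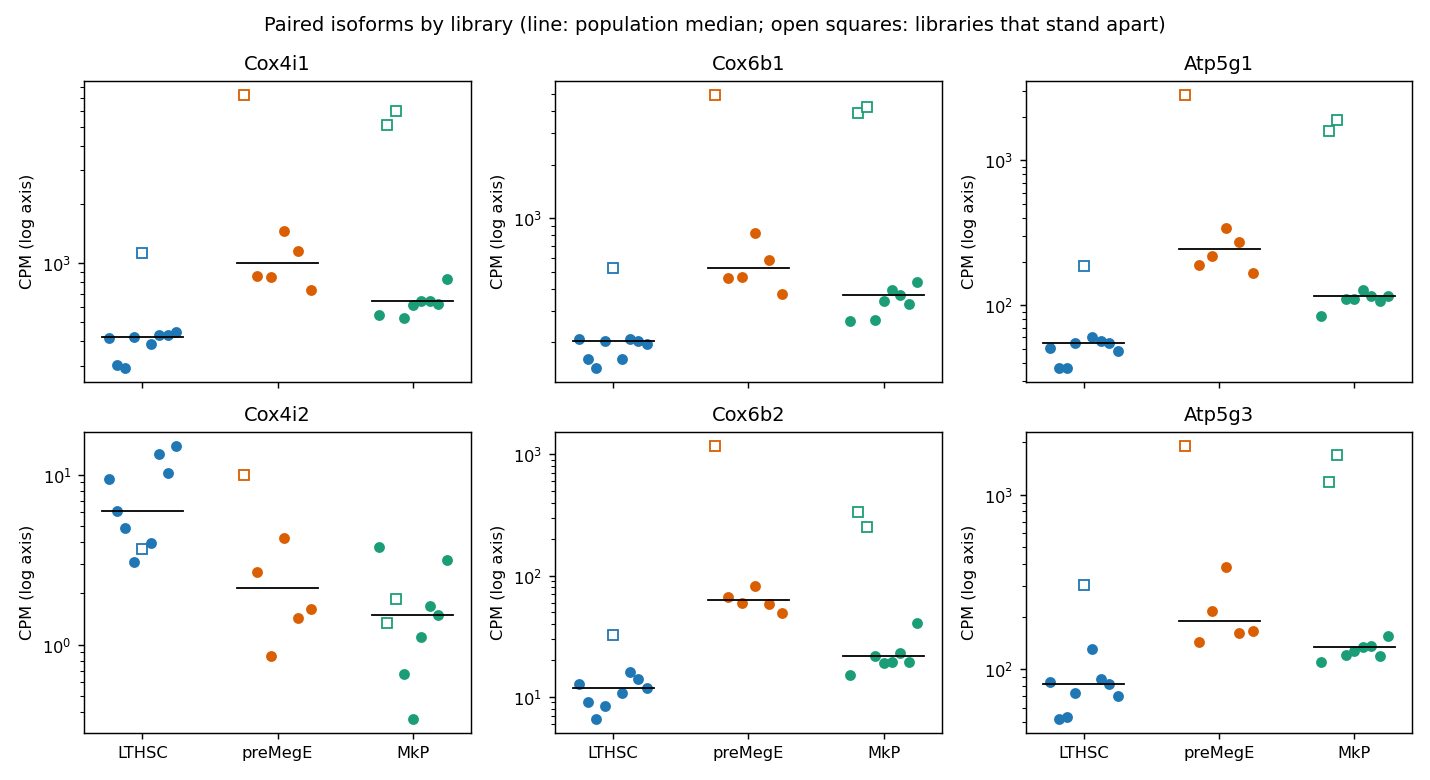
Level of 6 isoform genes in CPM on a log axis in every library by population, with the general isoform above its partner for Cox4 and Cox6b, and Atp5g1 above Atp5g3; lines are population medians and open squares the 4 libraries that stand apart. Cox4i2 is highest in LTHSC (up to 14.8 CPM), while Cox4i1, Cox6b1, Cox6b2, Atp5g1 and Atp5g3 have their highest median in preMegE.

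No member passed edgeR's test in any of the 7 comparisons between genotypes with all libraries. In LTHSC 0 of 86 members were called for VF against KI (0.0918% of genes), E12 against KI (0.0424%) and VF against E12 (0.0353%). The median log2 fold changes were 0.14, 0.76 and -0.64. DESeq2 called 0, 0 and 1 member there (1.59%, 2.59% and 1.02% of genes). In preMegE 0 of 87 were called for VF against KI (0.0151% of genes, with DESeq2 0 members and 0.400% of genes), with a median of -1.70. In MkP 0 of 87 were called for VF against KI (0% of genes), E12 against KI (0%) and VF against E12 (0%). The medians were -2.97, -3.12 and 0.12. DESeq2 called 2 higher and 66 lower for VF against KI (2.60% of genes higher, 12.3% lower), 3 higher and 67 lower for E12 against KI (3.34% and 13.1%), and 0 for VF against E12 (0.0636% of genes). Leaving out MkP KI 4, the KI library nearest to the other genotypes, edgeR called 4 higher and 73 lower in each of the MkP comparisons with KI (25.3% of all genes higher and 23.7% lower for VF, 25.5% and 24.3% for E12).

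The large medians rested on the libraries that stand apart. Without the 4 libraries the medians were 0.14, 0.06 and 0.03 in LTHSC, 0.32 in preMegE, and 0.33, 0.25 and 0.12 in MkP, in the order above. Summed complex I in MkP shows this: KI 4, KI 5 and KI 6 had 4748, 61701 and 64288 CPM, E12 had 5283, 5473 and 6431, and VF had 5740, 5406 and 6283. KI 4 lay below all E12 and VF libraries, and KI 5 and KI 6 far above. With KI 4 as the 1 KI library left, the fit without the 4 assumes that it varies like the other groups. Without the 4 libraries 0 members were called in MkP (0.414%, 0.683% and 0.0828% of genes, in the order above), in preMegE (0.228%) and in LTHSC for E12 against KI (0.124%) and VF against E12 (0.0899%). One member was called without the 4 libraries in LTHSC: Atp5b for VF against KI (2.03% of genes). It was 760, 659 and 689 CPM in KI, 915, 2635 and 1204 in E12 and 1316, 1104 and 1004 in VF. E12 4, the highest, is also the library with the highest neutrophil and monocyte markers, whose part in its level was not tested. VF lay above KI in all libraries, by 0.66 (SE 0.13, adjusted p 0.0407), and with all libraries the same size had an adjusted p of 0.718 (SE 0.37). Leaving out LTHSC E12 2 gave 1 call, Atp5g3, higher in E12 than in KI (0.932% of genes).

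Cox4i2, chosen here after its values were seen, was the member called by DESeq2 in LTHSC. Its 3 VF values lay above the 3 KI values, and those above the 3 E12 values. VF exceeded E12 by 1.82 on the log2 scale (SE 0.37, adjusted p 0.236) in edgeR's test and by 1.79 (adjusted p 0.000327) in that of DESeq2. VF also lay above E12 in MkP with no overlap (1.57, SE 0.75, adjusted p 1). The E12 and VF groups differ in Cre driver as well as in allele.

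Whether a genotype difference changed from LTHSC to a progenitor was tested directly. EdgeR called 0 of 87 members for VF against KI in preMegE minus LTHSC (0% of genes, with DESeq2 0 members and 0.0580% of genes). It also called 0 for VF against KI in MkP minus LTHSC (0.0134%, with DESeq2 46 lower and 1.69% of genes lower). For E12 against KI in MkP minus LTHSC it called 0 (0.0334%, with DESeq2 66 lower and 9.65% of genes lower). The median differences were -1.80, -3.06 and -3.71 on the log2 scale. They were 0.12, 0.18 and 0.13 without the 4 libraries, with 0 members called by edgeR (0.207%, 0% and 0% of genes). Leaving out MkP KI 4 gave 1 higher and 63 lower for VF (9.69% of genes lower) and 2 higher and 73 lower for E12 (15.6%), and leaving out LTHSC E12 2 or E12 11 gave 59 and 45 lower for E12 (8.12% and 4.71%). All 3 comparisons share the LTHSC KI libraries, and the last pair share MkP KI.

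Other mitochondrial genes were counted by lists, to be read against the shares of all genes called. In preMegE against LTHSC (21.2% of genes higher, 19.4% lower), 14 of 17 electron carriers and subunits outside the naming rule were higher. Among them were Cycs (cytochrome c; 2.77, SE 0.60, adjusted p 0.00114; 1.74 without the 4 libraries), Cyc1 (cytochrome c1; 1.65, SE 0.29, adjusted p 0.000193; 1.56 without the 4) and Atpif1, the inhibitor of ATP synthase (3.57, SE 0.72, adjusted p 0.000710; 2.12 without the 4). Assembly factors of other complexes were higher in 19 of 40 and iron-sulfur cluster assembly genes in 14 of 22. The latter include Glrx5, a glutaredoxin that carries clusters (2.495, SE 0.49, adjusted p 0.000581; 2.01 without the 4). Of 20 genes of the tricarboxylic acid cycle 11 were higher, such as Mdh2 (1.54, SE 0.29, adjusted p 0.000441; 1.42 without the 4) and Cs, citrate synthase (1.09, SE 0.21, adjusted p 0.000437; 1.13 without the 4). Of 11 mitochondrial antioxidant genes 7 were higher, such as Sod2 (1.08, SE 0.25, adjusted p 0.00180; 0.77 without the 4). The counts without the 4 libraries (23.5% of genes higher, 26.3% lower) were 14, 23 (and 1 lower), 14, 16 and 7, in the same order.

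Of 23 glycolysis genes 5 were higher and 4 lower in preMegE, shares near those of all genes, and 9 were higher and 7 lower without the 4 libraries. Ldhb, which favours the use of lactate, fell by 2.78 (SE 0.24, adjusted p 9.06e-08; -2.98 without the 4), and Aldoc fell by 2.53 (SE 0.28, adjusted p 1.30e-06; -2.43 without the 4). The glucose transporter Slc2a1 fell by 1.68 (SE 0.36, adjusted p 0.00113; -1.53 without the 4), and Ldha, which favours making lactate, rose by 1.08 (SE 0.26, adjusted p 0.00228; 1.099 without the 4). Regulators of mitochondrial DNA and biogenesis had 4 of 20 higher and 2 lower, and 6 higher and 2 lower without the 4 libraries, with the share higher near that of all genes in the first setting.

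In MkP against LTHSC (17.0% of genes higher, 17.7% lower) the counts higher were 10 of 17 carriers and other subunits, 10 of 40 assembly factors, 4 of 22 iron-sulfur assembly genes, 2 of 20 cycle genes, 2 of 11 antioxidant genes and 5 of 20 regulators (1 lower). Glycolysis had 3 higher and 6 lower. Without the 4 libraries (18.6% and 20.6% of genes) they were 10, 9, 7, 7, 3 and 4 (3 lower), and glycolysis had 5 higher and 7 lower. With all libraries the shares of iron-sulfur, cycle and antioxidant genes were near or below that of all genes. From preMegE to MkP with all libraries (4.26% of genes lower), 0 of 17, 1 of 40, 3 of 22, 1 of 20 and 2 of 11 of the first 5 lists were lower. These were 8, 5, 7, 8 and 6 without the 4 libraries (8.61%).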

How the data were processed

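Bulk RNA-seq was made by Smart-seq2, without molecular identifiers, in 24 libraries of 3 sorted populations and 3 genotypes. The authors deposited 1 table of raw read counts for 24454 genes with a gene length in bases, used here as the length. STAR 2.7.0c, featureCounts, Subread 1.6.4 and the mm10 build are named, per the submitters' processing notes. The annotation and strand setting are not given in the sources used here. Of the count columns, 18 matched a label title and 6 named MEP were taken as preMegE. The 16 rows without a symbol, at most 0.013% of a library's counts, were kept in the totals and could not be members. Depth was 10357877 to 29691635 counts per library, and no library repeated another in any of 276 pairs (the chi-square divided by its degrees of freedom was at least 19.81).

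Counts were tested with edgeR 4.0.16 (2-sided quasi-likelihood F test with robust dispersion after filterByExpr and TMM scaling, p adjusted by Benjamini-Hochberg over all genes tested and called under 0.05) in R 4.3.3 with limma 3.58.1. Genotypes were compared within a population over all its libraries. Populations, and differences of genotype differences, were compared over all 24 libraries and the genotypes that both share. Levels are CPM with TMM factors over 24 libraries. The length correction was an offset per library, from a spline of 5 degrees of freedom of the log2 CPM deviation (prior count 2) on log10 length. The standard error is the fold change divided by the root of F. The scripts were tested on simulated data. Alternatives were RLE scaling, no count filter, DESeq2 1.42.0, the length offset, leaving out the 4 libraries that stand apart, leaving out each library, a replicate block, and, chosen after seeing the data, the VF line alone and the offset without the 4 libraries. The 4 libraries were themselves set apart from values of these data, partly from their member levels. Same-numbered libraries correlated at -0.06 to 0.26, not all over 0.1, so the numbers were not taken to pair libraries.

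Named members are those called, up to the 10 largest changes per direction and comparison, core subunits and isoform sets, and up to 5 genes of a pathway list. Others are named as chosen after their values were seen, which applies to Cox4i2 and Atp5b between LTHSC genotypes, Atp5g3 there, and the length examples. The members and lists were chosen with earlier results of these data known. All 92 members matched RefSeq (GRCm38.p6). In the GENCODE annotation 32 have exons that overlap another gene, so their counts are uncertain without strand. Mitochondrially encoded genes were not analysed here. Some items are not reported here.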

Additional observations from a re-analysis of the deposited data

How the results depend on the processing

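Counts of members called moved as follows, with the main count first. Shares of all genes called are in parentheses where the main text does not give them. LTHSC VF against KI went from 0 to 1 without the 4 libraries, 1 with the replicate block (5.33%) and 1 with block and length offset (6.34%). LTHSC VF against E12 went from 0 to 1 with DESeq2, and MkP VF against KI from 0 to 68. MkP E12 against KI went from 0 to 55 without a count filter (6.03%) and 70 with DESeq2. MkP against LTHSC went from 67 to 1 with the replicate block (12.8%), 30 with block and length offset (28.8%), 13 in the VF line alone (23.1%) and 32 there with the offset (31.4%), so that the members called in these fits were no larger a share, or little larger, than of all genes in either direction. MkP against preMegE went from 0 to 1 with the length offset (10.3%), 46 without the 4 libraries, 23 without them with the offset (2068 genes), 2 with DESeq2, 6 with the replicate block (7.70%), 8 with block and offset (10.8%), 12 in the VF line alone (10.6%) and 9 there with the offset (10.8%). VF against KI in MkP minus LTHSC went from 0 to 46 with DESeq2, and E12 against KI from 0 to 66. The replicate block could be fitted in 7 comparisons, on 4 to 12 libraries; preMegE against LTHSC had 78 calls with it, against 80. Apart from these, the counts were within 1.5 times the main count. The cause was not tested.

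Leaving out each library in turn gave 0 to 1 calls for LTHSC E12 against KI, 0 to 77 for MkP VF against KI and for MkP E12 against KI, 57 to 76 for MkP against LTHSC, 68 to 81 for preMegE against LTHSC, 0 to 6 for MkP against preMegE, 0 to 64 for VF against KI in MkP minus LTHSC and 0 to 75 for E12 against KI. In MkP against preMegE the log2 fold changes ranged from -0.78 to 0.67 for Atp5g1, -1.45 to 0.23 for Cox6b2, -0.57 to 1.12 for Ndufa1, -0.42 to 1.13 for Ndufb2, -0.59 to 0.79 for Ndufb8, -0.56 to 0.91 for Ndufs6, -0.59 to 1.17 for Uqcr10, -0.89 to 0.86 for Uqcr11 and -0.59 to 0.94 for Uqcrq, each highest without preMegE KI 1. The ranges were -0.048 to 0.11 for Cox7a2l, preMegE against LTHSC, and -0.0415 to 0.14 for Cox7a2l, MkP against LTHSC.

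Members that did not pass with all libraries reversed (Sdha, MkP against LTHSC, and Cox7a1 and Cox7a2l, MkP against LTHSC and preMegE against LTHSC). In preMegE against LTHSC, Cox7a1 was -0.25 in the VF line with the offset. Cox7a2l was -0.32 with the offset, -0.11 without the 4 libraries, -0.27 without them with the offset, -0.34 with block and offset, -0.22 in the VF line and -0.37 there with the offset. In MkP against LTHSC, in the order offset, without the 4 libraries, without them with the offset, replicate block, block and offset, and VF line with the offset, Cox7a1 was -0.040, -1.003, -1.12, -0.63, -0.66 and -0.15, Cox7a2l -0.093, -0.16, -0.092, -0.35, -0.14 and -0.12, and Sdha 0.10, 0.033, 0.23, 0.20, 0.42 and 0.30. In the VF line without the offset Cox7a2l was -0.13 and Sdha 0.029. Of the 73 gene values, 565 of their alternatives gave the main call and direction, 82 added a call, 48 lost one and 27 reversed.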
